A study of Solea senegalensis with 30 samples.

Results

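miR-126 was followed in the blood plasma of 30 Senegalese sole (Solea senegalensis), a flatfish, by counts of small RNA reads. All rows named miR-126, with any letter or arm, were taken, which gave 47 of the 2129 rows, 3 of the 172 miRNA names and 117042 of the 2390862 counts. Each row is 1 isomiR, a read sequence that differs from its neighbours in its ends or in a base. The 3 names were miR-126a-3p with 29 rows, miR-126a-5p with 11 rows and miR-126b with 7 rows.

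Fish had received 1 intramuscular injection of the decapeptide KISS2-10, a kisspeptin, at 250 µg/kg body weight, or of phosphate buffered saline as control. Plasma came from 5 kisspeptin and 5 control females at 2 d, from 6 kisspeptin and 4 control males at 2 d, and from 5 kisspeptin and 5 control males at 4 d. All fish were breeders hatched in captivity. Each treatment had a tank of its own for each day, so treatment and tank cannot be told apart, nor can day and tank. Plasma is free of most cells, and in it the source of an RNA and the amount released per cell cannot be told apart.

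The pre-miR-126 hairpin lies in an intron of egfl7 in vertebrates, and its 2 arms give miR-126-3p and miR-126-5p. In zebrafish and mammals miR-126-3p is abundant in endothelial cells, where it lowers Spred1 and Pik3r2, inhibitors of VEGF signalling, and keeps vessels intact. In mice the 5p arm acts in endothelial cells as well, on Dlk1. Both arms are also found in platelets and in plasma of mammals. The role in sole is not known from these files.

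The sequences below carry the findings on arms and isomiRs, with the seed (bases 2 to 8, the part that pairs with targets) in capitals. They are the reads as counted, written 5′ to 3′.
miR-126a-3p, most common read: tCGTACCGtgagtaataatgca
miR-126a-3p, starting 1 base later: cGTACCGTgagtaataatgca
miR-126a-3p, ending 1 base earlier: tCGTACCGtgagtaataatgc
miR-126a-3p, starting 2 bases later: gTACCGTGagtaataatgca
miR-126a-3p, starting and ending 1 base earlier: cTCGTACCgtgagtaataatgc
miR-126a-3p, ending 2 bases earlier: tCGTACCGtgagtaataatg
miR-126a-5p, most common read: cATTATTActtttggtacgcg
miR-126b, full length: tCGTACCGtgagtaatagtgca

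miR-126b differed from miR-126a-3p by A18G, counted from the 5′ end of the most common read, and so outside the seed. The seed of the most common read was found in the most common read of no name other than miR-126a-3p and miR-126b, and the seed that results from a start 1 base later was found in that of no name. The 17-base read tCGTACCGtgagtaata stops before the position that separates them, and it was listed under both names, with 6 counts under miR-126a-3p and 15 under miR-126b. Counts of miR-126b were few, 49 in 16 of 30 libraries, and 33 of them carried A18G. Its full-length read had 21 counts, against 101252 of the most common read of miR-126a-3p. Whether the reads with A18G came from a separate miRNA was not tested.

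miR-126a-3p was one of the most abundant of the names counted. No let-7 name was among them, although the paper gives let-7e-5p and other let-7 members as the highest expressed miRNAs. Ranks, and shares of counts or of a library, hold only for the names counted. miR-126a-3p had a mean level of 15.32 ± 0.67 log2 cpm (SD, n = 30), rank 6 of 172, and held 4.86% of all counts. Levels are in cpm, counts scaled to a common library size by TMM, on a log2 scale with a prior count of 1. The name above it was miR-146a at 15.42 ± 0.49 and the name below it was miR-144-5p at 14.36 ± 0.66 log2 cpm (SD, n = 30 each). It was counted in all 30 libraries, whose totals were 25468 to 191846 counts (median 60539). miR-126a-5p was counted in 23 libraries, with a mean of 7.10 ± 2.28 log2 cpm and rank 62. miR-126b had a mean of 4.66 ± 1.03 log2 cpm and rank 106 (SD, n = 30 each). The spread of miR-126a-3p within groups was 0.61 log2 units, the 9th smallest of the 29 names counted in all libraries, whose median was 0.77.

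The sum of the 3 names is called miR-126 below, and its level by fish was as follows, in cpm. Kisspeptin males at 4 d had 63278, 57501, 33204, 32712 and 44543, against 51277, 74348, 31916, 48380 and 39126 in control males at 4 d. Kisspeptin males at 2 d had a lowest value of 15013, a median of 39501 and a highest of 63617, against 17780, 32253, 33510 and 34950 in control males at 2 d. The ranges overlapped in both sets of males.

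Kisspeptin females at 2 d had 40964, 35275, 27422, 47119 and 28537 cpm, against 166951, 72565, 40888, 29954 and 77458 cpm in control females. The highest value of all fish was that of control female 1, in which miR-126 made up 12.5% of the library (95% Wilson interval 12.4 to 12.7%, counting error only). Control female 5 followed with 10.7%. The lowest was kisspeptin male 2 of 2 d, with 1.83% of the library (interval 1.73 to 1.95%).

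**Figure D1:**
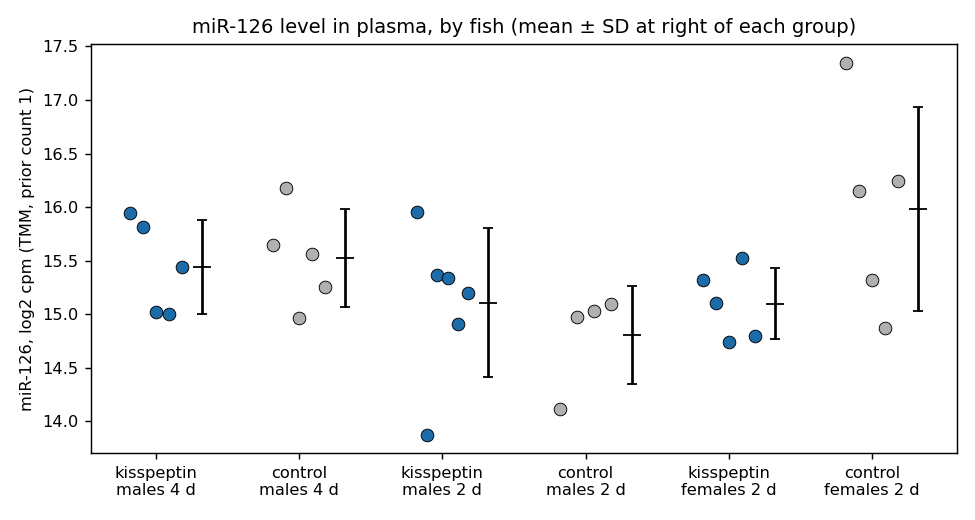
miR-126 in plasma by fish. The y axis is log2 cpm (TMM, prior count 1), each point is 1 fish, and the bar to the right of each group is its mean with SD (kisspeptin blue, control grey). Control females at 2 d reach 17.35 log2 cpm and the lowest fish, a kisspeptin male of 2 d, has 13.88.

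Over groups, control females at 2 d stood highest at 15.99 ± 0.95 log2 cpm (SD, n = 5). Control males at 4 d (15.52 ± 0.46, n = 5), kisspeptin males at 4 d (15.44 ± 0.44, n = 5), kisspeptin males at 2 d (15.11 ± 0.69, n = 6), kisspeptin females at 2 d (15.10 ± 0.33, n = 5) and control males at 2 d (14.81 ± 0.46, n = 4) followed. Only the gap between the first and the second of them, 0.46 log2 units, was larger than the smaller SD of the pair. It rested on control female 1: the other 4 control females averaged 15.64 ± 0.66 log2 cpm (SD, n = 4), a gap of 0.12. The other 4 gaps were between 0.01 and 0.34 and smaller than that SD. Neighbours in this order below the top did not differ beyond their spread.

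Kisspeptin fish were compared with control fish first. No name was called at an adjusted p under 0.05 by edgeR's quasi-likelihood test in the 2 d or the 4 d fits, so that the background of called names was 0% of 123 tested names in each sex at 2 d and 0% of 107 in males at 4 d. In kisspeptin females miR-126a-3p had a log2 fold change of −1.10 (SE 0.46, n = 5 and 5, edgeR unadjusted p = 0.0247, adjusted p = 0.416). At an unadjusted p under 0.05, 11 of the 123 names (8.94%) passed in this comparison, and miR-126a-3p was rank 6. In kisspeptin males of 2 d its log2 fold change was 0.23 (SE 0.46, adjusted p = 0.847), and in those of 4 d it was 0.03 (SE 0.39, adjusted p = 0.982). At an unadjusted p under 0.05, 10 of 123 names (8.13%) passed in males of 2 d and 2 of 107 (1.87%) in males of 4 d, and miR-126a-3p was not among them. On the log2 cpm of all 3 names the difference between kisspeptin and control females was −0.89, with a two-sided exact permutation p of 0.0873 (adjusted over 7 comparisons, p = 0.204).

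The value in females moved with control female 1. Without this fish the log2 fold change of miR-126a-3p was −0.57 (edgeR adjusted p = 0.753). Of the tissue lists set beside it, liver names (miR-122, miR-192 and miR-194) had negative fold changes in 4 of 4 tested (median −1.05), and muscle names (miR-1, miR-133 and miR-206) had positive ones in 4 of 4 (median 2.32, 1 with an unadjusted p under 0.05). Erythrocyte names were positive in 2 and negative in 4 (median −0.24, 1 of the negative ones with an unadjusted p under 0.05). Leukocyte and thrombocyte names were positive in 4 and negative in 3 (median 0.04). The median over all names tested was 0.04, and 0 names of these lists were called. The summed level of the liver list was 11.90 to 16.62 log2 cpm in kisspeptin females and 13.74 to 17.90 in control females, and that of the muscle list 11.76 to 16.97 in kisspeptin females and 11.04 to 14.59 in control females. Their part in the miR-126 value was not tested.

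The difference of the kisspeptin effect between males and females at 2 d was 1.33 log2 units for miR-126a-3p (SE 0.65, edgeR unadjusted p = 0.0539, adjusted p = 0.613), and 0.79 without control female 1 (adjusted p = 0.722). The difference of the effect in males between 4 d and 2 d was −0.29 (SE 0.53, adjusted p = 0.872). For these 2 contrasts 0% of the names were called, while 7 of 123 (5.69%) and 12 of 125 (9.6%) had an unadjusted p under 0.05. In every comparison of names, limma-voom and DESeq2 called at most 2 names, and miR-126 was never among them.

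Control males were then compared with control females at 2 d, where the value was the lowest fold change of miR-126a-3p in any comparison. The log2 fold change was −1.41 (SE 0.50, n = 4 and 5, edgeR unadjusted p = 0.00946, adjusted p = 0.326, rank 2 of 123 names). In this comparison 13 of 123 names (10.6%) passed at an unadjusted p under 0.05. Without control female 1 it was −0.88 (adjusted p = 0.489). Of the tissue lists, erythrocyte names were negative in 6 of 6 (median −0.998, 1 with an unadjusted p under 0.05). Liver names were negative in 3 of 4 (median −2.07, 2 with an unadjusted p under 0.05), and muscle names positive in 4 of 4 (median 1.22). The median over all names tested was −0.13. The summed erythrocyte level was 16.85 to 17.65 log2 cpm in control males and 17.61 to 19.11 in control females. None of these names was called, and their part in the miR-126 value was not tested. Kisspeptin males against kisspeptin females at 2 d gave −0.08 (SE 0.43, adjusted p = 0.994), where 10 of 123 names (8.13%) had an unadjusted p under 0.05.

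Between days, control males of 4 d against 2 d gave 0.58 (SE 0.39, edgeR adjusted p = 0.719), and kisspeptin males of 4 d against 2 d gave 0.29 (SE 0.35, adjusted p = 0.945). Among the 125 names tested 0% were called in either comparison of days, and 8 (6.4%) and 10 (8%) had an unadjusted p under 0.05. Over the 27 tests of the 3 names in 9 contrasts, 2 had an unadjusted p under 0.05 and none an adjusted p under 0.05. These comparisons share control or kisspeptin fish, so they are not independent.

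**Figure D2:**
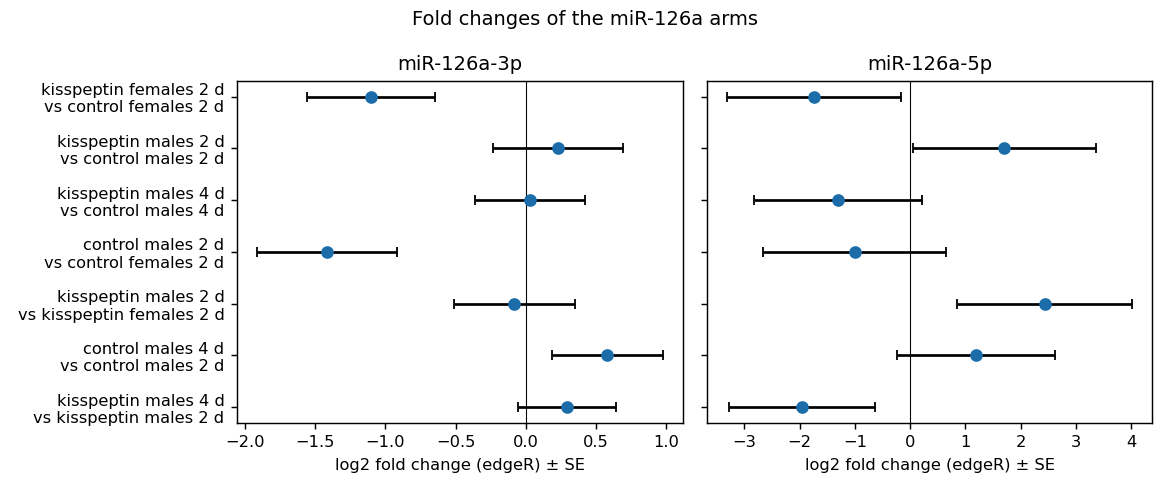
Log2 fold changes of miR-126a-3p (left) and miR-126a-5p (right) in 7 comparisons, each with an SE derived from the edgeR F statistic. The first group named is over the second, and the x axes differ. For miR-126a-3p the lowest value is −1.41, in control males against control females at 2 d.

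Among the names of vessel wall and endothelium that were listed with miR-126 (miR-23, miR-24, miR-27, miR-130, miR-143, miR-145, miR-221 and miR-222), 16 of 19 could be tested at 2 d. In kisspeptin against control females 7 had a positive and 9 a negative fold change, with a median of −0.43 against 0.04 over all names tested. Of the negative ones 1 had an unadjusted edgeR p under 0.05, beside 11 of all 123 names. In kisspeptin against control males of 2 d, 6 were positive and 10 negative (median −0.47 against −0.10), and at 4 d 11 of 13 were positive (median 0.66 against 0.03). None was called. The member of highest level was miR-27c.

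The 3p arm carried nearly all counts of miR-126a. Over all 30 fish 116288 counts came from the 3p arm and 705 from the 5p arm, a ratio of 165, so the 5p arm had 0.603% of the sum of arms. Among the 24 names that had both arms listed, this minor arm share was the 6th smallest. miR-126a-5p was in 3 of 5 kisspeptin males of 4 d, against 5 of 5 control males of 4 d. It was in 6 of 6 kisspeptin males of 2 d, against 3 of 4 control males of 2 d. It was in 2 of 5 kisspeptin females, against 4 of 5 control females.

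By fish, kisspeptin males at 2 d had a lowest 5p share of 0.663%, a median of 1.34% and a highest of 6.30%, against 1.87, 0.693, 0.331 and 0% in control males at 2 d. Kisspeptin females had 1.17, 0, 0, 0.149 and 0%, against 0.822, 0.212, 0.0522, 0 and 0.124% in control females. Kisspeptin males at 4 d had 0, 0.597, 0.132, 1.36 and 0%, against 1.65, 0.0889, 2.99, 0.273 and 0.591% in control males at 4 d. In fish with no 5p count, a share of up to 0.0357 to 0.306% could not be told from 0 (3 counts of the arm sum, counting error only). The most common 5p read was counted in 13 libraries, at 10 counts or more in each, while 23 libraries had 5p counts. Whether a 5p read with no count was missing from the plasma or left out when the counts were made was not tested. The 5p zeros are therefore not read as absence, and the limit of 3 counts does not cover reads left out. The other 5p shares above and the arm ratios below carry the same limit, since libraries with 5p counts could lack the most common 5p read. The highest share, 6.30%, was in the fish with the lowest miR-126 level, which had 66 of 1047 counts on the 5p arm.

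**Figure D3:**
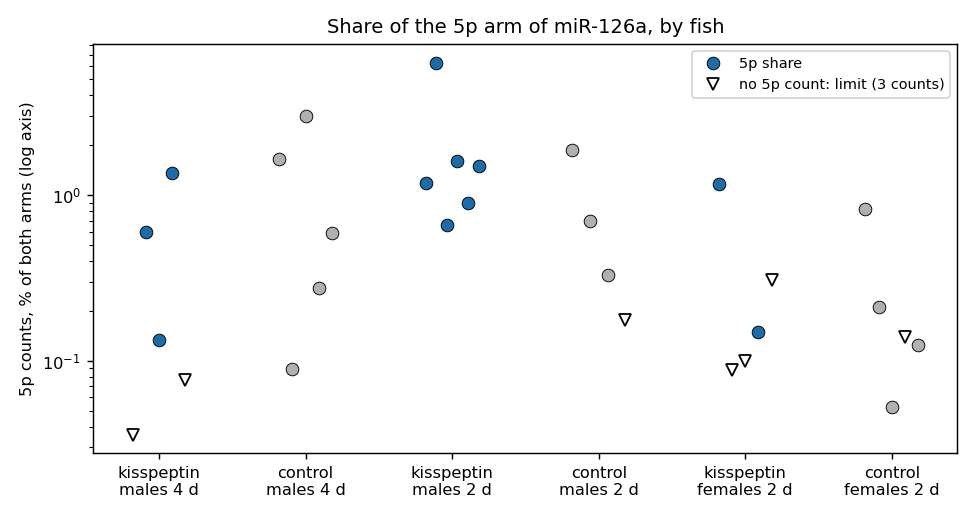
The 5p arm as percent of the counts of both arms of miR-126a, by fish and group (kisspeptin blue, control grey), on a log axis. Open triangles stand at the limit that 3 counts allow, by counting error only, for fish in which no 5p count was listed. All 6 kisspeptin males of 2 d had 5p counts, and 3 of 5 kisspeptin females had none.

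On a log2 scale with a prior count of 1, the ratio of the 5p to the 3p arm was −6.00 ± 1.14 in kisspeptin males at 2 d and −9.80 ± 2.12 in kisspeptin females at 2 d (SD, n = 6 and 5). The difference was 3.80 (two-sided exact permutation p = 0.00649 of 462 splits, adjusted over 7 comparisons p = 0.0455), with 4 of 6 males above all females. This was the 1 of the 7 comparisons of the arm ratio that passed. It missed the threshold when any of 10 of the 11 fish was left out, with adjusted p up to 0.0833 and differences from 3.37 to 4.66. It also missed when 5p counts under 3 were set to 3 (difference 2.81, adjusted p = 0.0606) and on the percent scale (1.76 percentage points, adjusted p = 0.167), both tried after the data were seen. With a prior count of 0.25, also tried after the data were seen, it passed (difference 5.01, exact permutation, adjusted p = 0.0455). The level of miR-126a-5p itself gave a log2 fold change of 2.44 (SE 1.58, edgeR adjusted p = 0.805).

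Kisspeptin males at 4 d had a ratio of −9.32 ± 2.66, against −6.00 ± 1.14 in those of 2 d, a difference of −3.32 (exact permutation p = 0.0152, adjusted p = 0.0530, n = 5 and 6). The ratio in kisspeptin against control males of 2 d was −6.00 ± 1.14 against −8.05 ± 2.43 (difference 2.04, adjusted p = 0.211), and in males of 4 d −9.32 ± 2.66 against −7.29 ± 1.94 (difference −2.03, adjusted p = 0.347). The ratio was −9.80 ± 2.12 in kisspeptin females and −9.30 ± 1.61 in control females (adjusted p = 0.651). Control males and females at 2 d differed by 1.25 (adjusted p = 0.500), and control males of 4 d and 2 d by 0.76 (adjusted p = 0.651).

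The isomiR make-up was narrow in the reads counted. The most common read of miR-126a-3p, of 22 bases, held 86.5% of the miR-126 counts and 87.1% of those of its name. That 87.1% was the highest share of a most common read among the 29 names counted in all libraries (median 64.9%). The next of these names were close, miR-23a-3p with 85.6% and miR-27e with 85.3%, both of the vessel wall and endothelium list. Others of that list were spread, with 83.4% for miR-143-3p, 65.6% for miR-222a-3p and 38.5% for miR-27c. Of the miR-126 counts, the read starting 1 base later held 7.44%, the read ending 1 base earlier 1.35% and the read starting 2 bases later 1.08%. These shares and ranks hold only for reads counted, since shorter reads described below had no count in many libraries and could have been left out. Where the read ending 1 base earlier was counted, the most common read held 74.4, 77.8, 78.8 and 80.4% of the miR-126 counts. These fish were kisspeptin female 1, kisspeptin male 4 of 4 d, kisspeptin male 1 of 2 d and control female 2. Of the 47 rows, 4 held at least 1% of the counts, 2 were in all 30 libraries and 11 were in 1 library only. The most common 5p read had 546 counts in 13 libraries, 77.4% of its arm.

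By group, the share of the most common read was 85.8 ± 5.47% in kisspeptin and 87.4 ± 4.23% in control males at 4 d, 85.3 ± 3.86% in kisspeptin and 89.6 ± 2.26% in control males at 2 d, and 83.7 ± 5.63% in kisspeptin and 86.6 ± 4.29% in control females at 2 d (SD, n = 5, 5, 6, 4, 5 and 5). None of the 3 differences between kisspeptin and control passed (exact permutation, adjusted p from 0.433 to 0.713, lowest unadjusted p 0.0619 in males of 2 d), and without kisspeptin male 4 of 4 d the difference at 4 d was 0.37 percentage points in place of −1.63. This share also moves with the shorter reads described below, which were counted in few fish. The share of reads that start at another base was 7.18 to 14.6% over all fish. Like the shares of all reads ending earlier or later given further on, this share is of the 3p counts, miR-126b included. It averaged 11.0 ± 2.16% in kisspeptin and 10.5 ± 2.30% in control males at 4 d, and no comparison of it passed (adjusted p = 0.833 in all 7). Mean read length was taken over all miR-126 counts, both arms included, and so also moves with the 5p reads and the shorter 3p reads. In males of 2 d it was 21.81 ± 0.05 bases with kisspeptin and 21.88 ± 0.03 in controls (exact permutation p = 0.0476, adjusted p = 0.333).

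**Figure D4:**
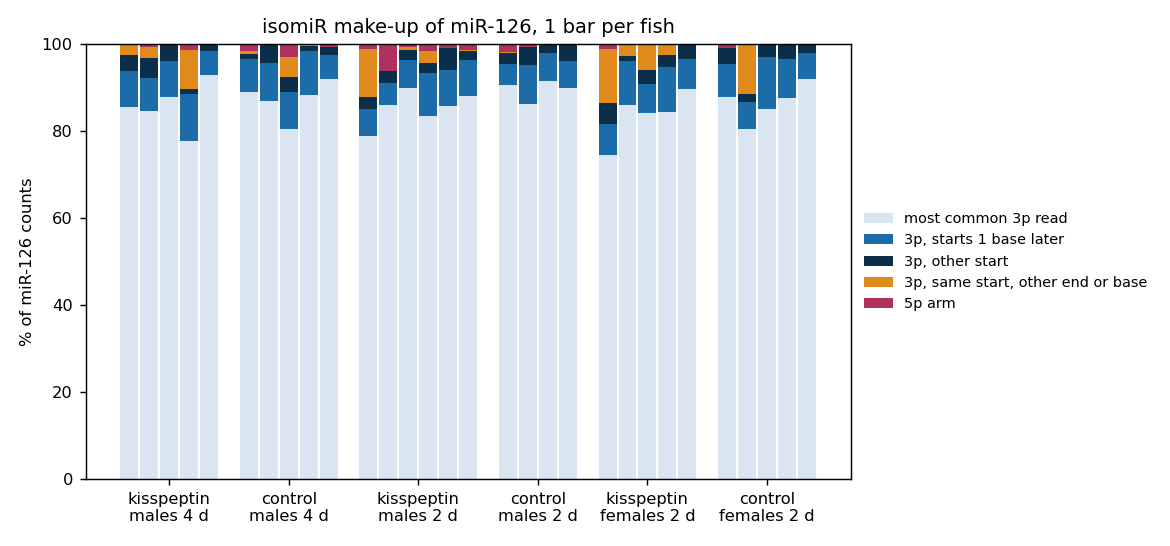
isomiR make-up of miR-126 as percent of its counts, 1 bar per fish, grouped by sex, treatment and day. The light part is the most common 3p read, 74.4 to 92.8% of counts, and the orange part, reads with the same start and another end or base, is large in only a few fish.

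Reads with the same start but a shorter 3′ end were counted in some fish and had no count in the others. The read ending 1 base earlier was counted in 4 libraries, with 8.96% of the miR-126 counts in kisspeptin male 4 of 4 d, 258 counts (10.2%) in kisspeptin male 1 of 2 d, 220 (12.2%) in kisspeptin female 1 and 961 (11.3%) in control female 2. In the other 26 libraries it had no count, also in control female 1 with its 23986 miR-126 counts, where 3 counts would be 0.0125%. Whether a read with no count was missing from the plasma or left out when the counts were made was not tested, so these zeros are not read as absence. The read ending 2 bases earlier had 59 to 203 counts in 7 libraries, 6 of them kisspeptin fish, where 16 of all 30 fish had kisspeptin. Its zeros carry the same limit. No library held both reads, and 19 held neither. In kisspeptin against control females the read ending 2 bases earlier, found in 3 of 5 kisspeptin and 0 of 5 control females, had an adjusted p of 0.251 by edgeR, and 0.0147 with no filter on low counts. With no filter 26 isomiRs of all names were called in that comparison, and 1 of the 40 miR-126 rows tested. The full-length miR-126b read, with a log2 fold change of −3.79, and the read ending 3 bases earlier, with 5.65, had the same adjusted p of 0.251. Both were rare over all fish, the first with 21 counts in 11 libraries and the second with 47 counts in 4 libraries. The read ending 1 base earlier, in at most 1 fish of any group, was too rare for the filter, and without the filter it was called in 3 comparisons that each rest on 1 fish. They were kisspeptin against control males of 2 d and of 4 d, and control males against control females. In them 20, 24 and 30 isomiRs of all names were called without the filter.

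Over isomiRs, no row was called by edgeR at an adjusted p under 0.05 in any of the 7 comparisons, 0% of 684 at 2 d between sexes and treatments, of 362 in males of 4 d, and of 662 between days. In kisspeptin against control females 6 of the 18 miR-126 rows tested had an unadjusted p under 0.05, 2 of them higher, beside 118 of all 684 rows (17.3%), and the smallest adjusted p was 0.251. In the other comparisons the miR-126 rows with an unadjusted p under 0.05 were 3 of 18 in kisspeptin against control males of 2 d (10.5% of all rows), 0 of 8 in males of 4 d (4.14%), 1 of 18 in control males against control females (11.3%), 3 of 18 in kisspeptin males against kisspeptin females (15.2%), 1 of 16 in control males between days (14.5%) and 1 of 16 in kisspeptin males between days (13.4%). The most common read had, in kisspeptin against control females, a log2 fold change of −1.16 (SE 0.51, adjusted p = 0.264). The read starting 1 base later had −0.93 (SE 0.64, adjusted p = 0.618), and the read starting 2 bases later had −0.55 (SE 0.94, adjusted p = 0.963).

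Names whose levels ran most like miR-126 over the 30 fish were sought among the 28 other names counted in all libraries. They were miR-150 (Spearman rho 0.47, Pearson r 0.36), miR-146a (rho 0.44, r 0.44), miR-451 (rho 0.31), miR-142b (rho 0.28) and miR-30e-5p (rho 0.27). The lowest was miR-144-5p (rho −0.20). The points share library size and TMM scaling, and groups with different means. On deviations from the group means the order was another: rho was 0.37 for miR-150, 0.47 for miR-146a, 0.13 for miR-451, 0.0024 for miR-142b and 0.075 for miR-30e-5p, while miR-223-3p had 0.39 and the lowest was miR-192 with −0.41. None of the 28 passed with a permutation test adjusted over names (adjusted p = 0.2005 for miR-150 and miR-146a by rho). Leaving out the 2 fish farthest from the median level, control female 1 and kisspeptin male 2 of 2 d, the r of miR-150 was 0.51 and that of miR-146a 0.43. The library total gave rho 0.31 and r 0.40 with miR-126 (adjusted p = 0.275 and 0.0813), and r 0.18 without those 2 fish.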

How the data were processed

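Small RNA of plasma supernatant was sequenced by the authors in 2 runs, and which run each belonged to is not stated in the labels. They trimmed adapters and 4 random bases at each read end with Cutadapt, mapped reads with bowtie2 (k = 10) to miRBase hairpins of all species, and kept, for names found in several species, the species with the highest expression. The submitters' processing notes name cutadapt 2.1, Bowtie2 2.4.1 and HTSeq 0.6.0. The authors deposited raw counts per isomiR without normalization. Each count column was matched to a sample label, and groups came from the labels. Names left out of the counts were not analysed here.

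Counts were summed to names and tested with edgeR 4.0.16 (quasi-likelihood, TMM, R 4.3.3) after a filter (1 cpm or more in 4 or more samples), in 3 fits: 4 groups at 2 d, males at 4 d, and males of both days. The edgeR test gives no SE, so each SE of a fold change was its absolute value divided by the square root of the F statistic. Adjusted p-values (Benjamini-Hochberg) run over all names or isomiRs tested, with 0.05 as threshold. limma 3.58.1 and DESeq2 1.42.0 were alternatives. Single values were tested by two-sided exact permutation and adjusted over 7 comparisons; correlations used 100000 permutations. The edgeR test was checked on simulated counts, with larger changes than those of miR-126a-3p and a smaller spread between fish than in these data. That check does not show how often changes of the size seen here would be called. Libraries had 25468 to 191846 counts, and no 2 were identical. Read positions are relative to the most common read, and no genome was given. The sequence was not placed on chromosomes. The members and lists were chosen with earlier results of these data known. Replicates are separate fish. The names given in full follow a rule. They are isomiRs of at least 1% of counts, the neighbours in level, the 5 names most like miR-126 and the name least like it. Other isomiRs, and the names set beside miR-126a-3p in the share of a most common read, were named after their values were seen.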

Additional observations from a re-analysis of the deposited data

Results flagged for a closer look

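Each of 8 measures was examined in each of 6 groups. The gap of the most extreme fish to the next was set over the range of the group. In 6 of these 48 sets this fish lay apart from the rest, against 2.4 if each set had a chance of about 1 in 20. That rate was not checked for these measures, and the share of reads ending later was above 0 in only 17 of 30 fish. No excess over chance is read from these counts. The measures overlap in the counts they use. Control male 1 of 2 d had the lowest level of its group, 14.12 log2 cpm, with the next at 14.98. Kisspeptin male 5 of 4 d had the lowest share of reads with another start in its group, 7.18%, with the next at 12.0%. Kisspeptin male 1 of 2 d had the highest share in its group of reads ending earlier, 10.8%, and of reads ending later, 1.12%. Control female 2 had the highest share of reads ending earlier in its group, 12.3%, with the next at 1.10%. In both fish most of the share ending earlier came from the read ending 1 base earlier, which was counted in 4 libraries. Its zeros in the other libraries are not read as absence. Control male 3 of 4 d had the shortest mean read length of its group, 21.74 bases.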

How the results depend on the processing

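No paired analysis was possible because replicate numbers were given in accession order and do not pair fish. Over 225 tests of the 3 names under all settings that kept every fish, and 330 with 1 fish left out, none had an adjusted p under 0.05. No value that changed sign had been called, and for each the cause was not tested. Zero counts and the few 5p counts limit the arm ratio, and totals of 25468 to 191846 limit all rare isomiRs.

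For kisspeptin against control males of 4 d, the difference in log2 level was 0.051 with no scaling factors, 0.016 with DESeq2 size factors and 0.00293 without miR-21 counts, against −0.08. The fold change of miR-126a-3p there was −0.00296 with no scaling factors, −0.051 with no filter on low counts, −0.086 with names summed by number, −0.061 with all 30 samples in one fit and −0.0524 without miR-21 counts, against 0.03. For kisspeptin males against kisspeptin females at 2 d, the difference in level was −0.012 with no scaling factors, −0.18 with DESeq2 size factors and −0.41 without miR-21 counts, against 0.01. The fold change was 0.013 with no scaling factors, 0.012 with 1 cpm required in all samples, 0.029 with names summed by number, 0.033 with all 30 samples in one fit and 0.047 with only the groups compared, against −0.08. The difference of the effect in males between days was 0.15 by DESeq2, against −0.29.

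With alternatives for the arm ratio chosen after the data were seen, kisspeptin females differed from control females by 0.20 with 5p counts under 3 set to 3 and by 0.022 percentage points on the percent scale, against −0.50. Kisspeptin males and females at 2 d differed by 2.81 and by 1.76 percentage points. Kisspeptin males of 4 d and 2 d differed by −4.16 with a prior count of 0.25 (exact permutation, adjusted p = 0.0455), past the threshold that the reported −3.32 missed.

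miR-126a-5p of control males against control females was 0.25 by limma-voom, against −1.01. miR-126b was −0.66 by limma-voom in kisspeptin against control males of 2 d, and −0.34 by limma-voom for the difference of the effect between sexes. In kisspeptin males against kisspeptin females it was 0.24 with no scaling factors, 0.27 with no filter, 0.17 with all 30 samples and 0.35 with only the groups compared.

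The number of isomiRs called, 0 as reported, was 13, 13, 2, 15, 7, 21 and 12 by DESeq2 and 26, 20, 24, 30, 24, 22 and 20 with no filter on low counts, in kisspeptin against control females, males of 2 d and males of 4 d, control males against females, kisspeptin males against females, control males between days and kisspeptin males between days. With no filter 1 miR-126 row, of 40, 40, 36 and 40 tested, was called in each of the first 4 of these. It was the read ending 2 bases earlier in females and the read ending 1 base earlier in the other 3. By limma-voom the number of isomiRs called was 1 in males of 4 d, 5 in control males against females and 6 in control males between days, none of them of miR-126. By DESeq2 the miR-126 rows called were 1, of 16 tested, in control males between days, the read ending 2 bases earlier.

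The number of names called, 0 as reported, was 1 by DESeq2 in kisspeptin against control males of 2 d, in kisspeptin males between days and for the difference of the effect between sexes, and 2 for that between days; by limma-voom it was 1 in control males against females, in kisspeptin males between days and for the difference between sexes.

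With 1 fish left out at a time, the ranges were as follows where a sign or a call changed. The fold change of the most common read had a range of −0.048 to 0.36 in kisspeptin males 2 d against control males 2 d and −0.23 to 0.14 in kisspeptin males 4 d against control males 4 d. The log2 level of miR-126 had a range of −0.16 to 0.25 in kisspeptin males 2 d against kisspeptin females 2 d and −0.22 to 0.088 in kisspeptin males 4 d against control males 4 d. The log2 arm ratio had a range of −0.35 to 1.56 in control males 4 d against control males 2 d, −1.36 to 0.097 in kisspeptin females 2 d against control females 2 d, 3.37 to 4.66 in kisspeptin males 2 d against kisspeptin females 2 d and −4.11 to −2.59 in kisspeptin males 4 d against kisspeptin males 2 d. The mean read length (bases) had a range of −0.035 to 0.011 in kisspeptin males 4 d against control males 4 d. The fold change of miR-126a-5p had a range of −1.60 to 1.35 in control males 2 d against control females 2 d and −4.21 to 0.62 in kisspeptin females 2 d against control females 2 d. The fold change of miR-126b had a range of −0.31 to 1.95 in the difference of the kisspeptin effect between males and females at 2 d, −2.96 to 0.50 in the difference of the kisspeptin effect in males between 4 d and 2 d, −1.43 to 0.83 in kisspeptin males 2 d against control males 2 d, −1.67 to 0.58 in kisspeptin males 2 d against kisspeptin females 2 d and −2.51 to 0.97 in kisspeptin males 4 d against kisspeptin males 2 d. The fold change of miR-126a-3p had a range of −0.066 to 0.63 in kisspeptin males 2 d against control males 2 d, −0.38 to 0.37 in kisspeptin males 2 d against kisspeptin females 2 d and −0.20 to 0.15 in kisspeptin males 4 d against control males 4 d. The share of reads with another start (percentage points) had a range of −0.27 to 1.45 in kisspeptin females 2 d against control females 2 d and −0.31 to 1.46 in kisspeptin males 4 d against control males 4 d. The share of reads ending earlier (percentage points) had a range of −2.54 to 0.47 in control males 2 d against control females 2 d, −3.49 to 0.15 in kisspeptin males 2 d against kisspeptin females 2 d and −0.22 to 2.66 in kisspeptin males 4 d against kisspeptin males 2 d. The share of reads ending later (percentage points) had a range of −0.13 to 0.049 in control males 2 d against control females 2 d, −0.13 to 0.042 in control males 4 d against control males 2 d, −0.077 to 0.21 in kisspeptin males 2 d against control males 2 d and −0.025 to 0.23 in kisspeptin males 2 d against kisspeptin females 2 d. The share of the most common read (percentage points) had a range of −0.70 to 3.09 in kisspeptin males 2 d against kisspeptin females 2 d, −3.39 to 0.37 in kisspeptin males 4 d against control males 4 d and −1.36 to 2.41 in kisspeptin males 4 d against kisspeptin males 2 d. The number of isomiRs called in kisspeptin against control males of 2 d was 0 to 1 (1 without kisspeptin male 3), and the number of names called for the difference of the effect between days was 0 to 1 (1 without kisspeptin male 3 of 4 d). The arm ratio between kisspeptin males and females at 2 d and between kisspeptin males of both days did not cross 0 and stands here because its call changed with fish left out.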
